A study of Mus musculus with 8 samples.

Results

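The Mediator complex was examined through the transcripts of its 33 subunits in induced immature oligodendrocytes (iOLs) with and without Med23. The subunits were taken by symbol from the deposited gene table, and all 33 were found among its 24346 genes. RNA-seq was performed on 8 libraries, 4 labelled WT (Med23+/+ iOLs) and 4 labelled KO (Med23-/- iOLs). Both came from mouse oligodendrocyte precursor cells (OPCs), which had been immunopanned on CD140a from brains at postnatal day 7 and expanded with PDGF-AA and NT-3. Both genotypes were sampled after 1 day in 15 nM T3, the active thyroid hormone, with 10 ng/mL CNTF, a cytokine. Per the study's methods, the OPCs named Med23-/- came from Med23 fl/fl;Olig1-Cre mice and the controls were Med23 fl/fl, so both groups carry floxed Med23 and only the former carry Cre, which acts in cells that use the Olig1 promoter. The sources used here do not tell whether the replicates were separate animals or cultures, so the p-values measure the spread between these libraries, which may be technical.

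Mediator passes signals from DNA-bound transcription factors to RNA polymerase II. Its head module contacts the polymerase, the tail receives many of the activators, and Med14 is the backbone that holds the head, middle and tail modules together. A kinase module made of Cdk8 or Cdk19, cyclin C, Med12 or Med12l and Med13 or Med13l binds the core reversibly and keeps the polymerase from engaging while bound. In the oligodendrocyte lineage, T3 acts through the thyroid hormone receptor, a factor that is known to reach Mediator through Med1.

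Values are FPKM, in which the fragments of a gene are divided by its transcript length and by a measure of library size. The unit is meant for comparison between genes and between libraries, but how the libraries were scaled is not given in the sources used here. No read counts were used, so sequencing depth is unknown. The estimated worth of 1 read ran from 0.752 to 1 times that of Med23+/+ replicate 1 over the 8 libraries, with overlapping ranges for the genotypes. Oligodendrocyte lineage markers summed to between 1578 and 2158 FPKM over all libraries, with Olig1 the highest, whereas 5 microglial markers summed to at most 1.48 FPKM and 5 endothelial markers to at most 0.368 FPKM. The 5 astrocyte markers summed to 27.5 to 71.6 FPKM in Med23+/+ and 24.4 to 44.1 FPKM in Med23-/- iOLs. Among them, Gfap and Aqp4 were called lower, at 0.230 and 0.343 times their Med23+/+ means (limma adjusted p = 0.0222 and 0.0120), and Slc1a2 higher, at 1.62 times (adjusted p = 0.0222). Single libraries weighed on these ratios. Gfap had 30.0 FPKM in Med23+/+ replicate 1, where the other Med23+/+ libraries had 6.56 to 10.8 FPKM. Aqp4 overlapped between the genotypes, with 4.86 FPKM in Med23-/- replicate 3 and 4.32 FPKM in the lowest Med23+/+ library. The 5 neuron markers summed to 185 to 205 FPKM in Med23+/+ and 256 to 309 FPKM in Med23-/- iOLs. All 5 were higher with no overlap between the genotypes, as were 16.3% of all genes tested. The microtubule protein gene Map2, by far the most abundant, was at 1.25 times its Med23+/+ mean, and the others were at 1.91 to 3.27 times. Within the lineage, Pdgfra of OPCs was at 2.77 times and the myelin gene Mbp at 0.209 times its Med23+/+ mean in Med23-/- iOLs. The part of these marker differences in the subunit values was not tested.

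Every Mediator subunit was detected in all 8 libraries. Mean levels in Med23+/+ iOLs ran from 6.85 FPKM for Med9 to 41.8 FPKM for Med10, a 6.10-fold span, and in Med23-/- iOLs from 6.46 FPKM for Med26 to 41.7 FPKM for Med10, a 6.45-fold span. Both extremes of the Med23+/+ order, Med10 and Med9, are middle module subunits. Med10 measured 39.1, 41.3, 42.3 and 44.6 FPKM in Med23+/+ replicates 1 to 4 and 38.8, 43.1, 39.9 and 45.0 FPKM in the Med23-/- libraries. The Med23-/- values thus enclosed those of Med23+/+ on both sides. In GENCODE, 92.8% of the exonic bases of Med10 are shared with other genes, and the largest overlap is with Gm26819 on the opposite strand. The use of strand in the authors' counting is not given in the sources used here, so the level of Med10 is uncertain.

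Med9 measured 6.65, 6.42, 7.14 and 7.21 FPKM in Med23+/+ and 7.16, 7.06, 7.997 and 9.62 FPKM in Med23-/- iOLs. Its groups overlapped, with the highest value in Med23-/- replicate 4. Med26, the subunit that docks elongation factors, measured 6.97, 6.57, 6.75 and 7.63 FPKM against 6.96, 7.29, 5.37 and 6.23 FPKM, also overlapping. Of its exonic bases, 12.7% are shared with other genes, and the largest overlap is with an opposite-strand gene.

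**Figure D1:**
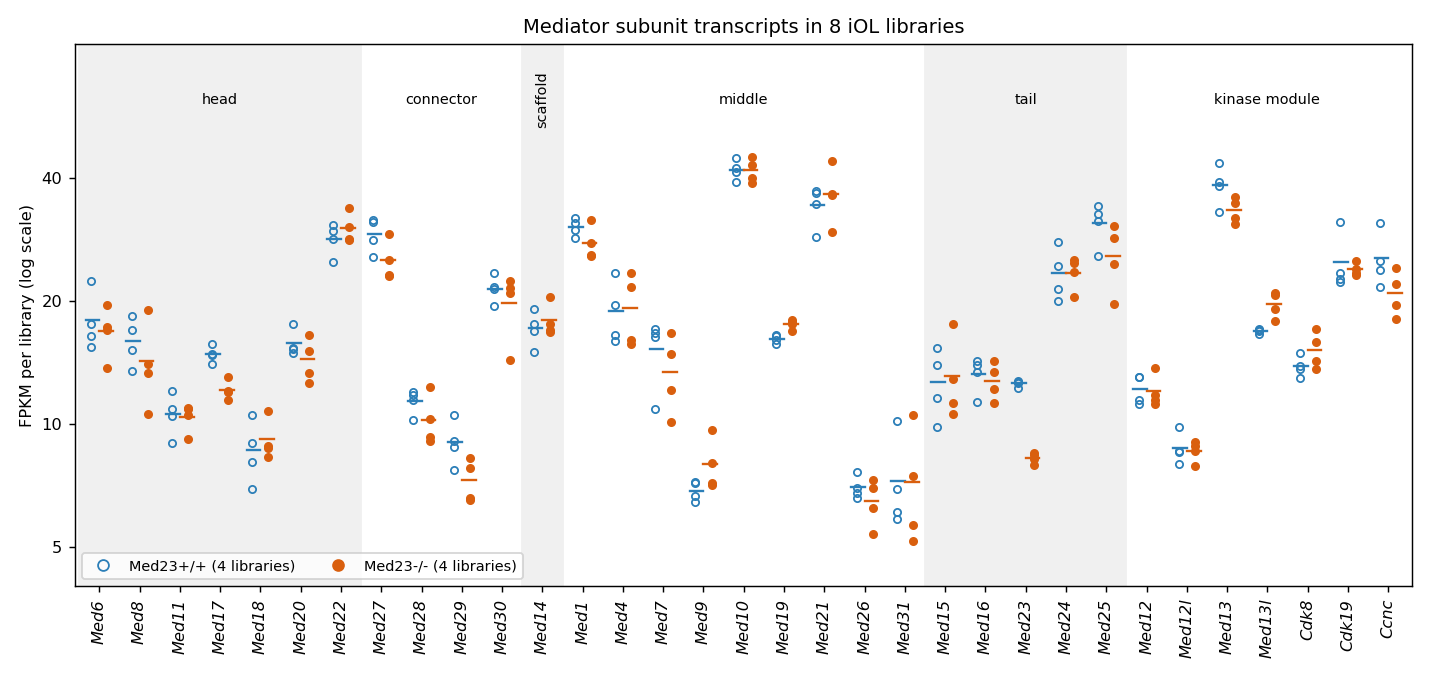
FPKM (log axis) of the 33 Mediator subunits in 8 iOL libraries, grouped by module. Open blue circles are Med23+/+ and filled orange circles Med23-/- libraries, with a bar at each group's mean. The genotypes overlap for most subunits, while the Med23-/- points of Med23, at 7.93 to 8.49 FPKM, lie below the Med23+/+ points, at 12.2 to 12.7 FPKM.

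The order of subunit levels was much the same in both genotypes. Between the 33 means, Spearman's rho was 0.977, a description across genes that share the same libraries. Neighbours in this order were seldom separable. Of 32 neighbouring pairs in Med23+/+ iOLs, 1 did not overlap between libraries, with Med13l above Med19, and of 32 in Med23-/- iOLs again 1, with Med12 above Med11. After Med10, the most abundant transcripts in Med23+/+ iOLs were Med13 (38.4 ± 4.31 FPKM), Med21 (34.2 ± 3.85), Med25 (31.0 ± 3.63) and Med1 (30.3 ± 1.51; SD, n = 4 each). The least abundant besides Med9 were Med26 (6.98 ± 0.464), Med31 (7.24 ± 1.98) and Med18 (8.61 ± 1.51 FPKM). Module medians in Med23+/+ iOLs ran from 13.2 FPKM in the tail to 17.1 FPKM for Med14.

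The comparison of the genotypes asked which subunit transcripts changed when Med23 was deleted. Med23, the deleted gene, and Med17 were lower in Med23-/- iOLs, and no subunit was called higher. With limma on log2(FPKM + 1), 2 of 33 subunits (6.06%) had an adjusted p under 0.05 and a lower level, where 14.1% of the 12328 genes tested did. In the other direction 0 of 33 passed, where 15.9% of all genes tested did, and at an unadjusted p under 0.05 the higher subunits numbered 1, Med13l. With the study's own limit of a fold change above 2 added, 0 subunits were lower and 0 higher, against 1.75% and 2.98% of all genes tested. In bulk libraries such as these, fewer cells of a type and less RNA per cell cannot be told apart.

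Differences of the remaining subunits were small. The log2 fold change (Med23-/- over Med23+/+) was below 0 for 22 subunits (66.7%, beside 51.7% of all genes tested) and above 0 for 11, with a median of -0.04 over the 33 and of -0.01 over all genes tested. Of the 33, 32 (97.0%) had an absolute log2 fold change under 0.3, compared with 64.4% of all genes tested. For 26 subunits (78.8%) the whole 95% interval lay within 0.5 of 0 on the log2 scale, compared with 54.6% of all genes. The median absolute log2 fold change was 0.11 over the 32 subunits other than Med23, 0.21 over all genes tested and 0.17 over the 6368 genes whose Med23+/+ mean fell within the subunits' range. In that range, 15.1% of genes were called lower and 11.98% higher. The subunits were measured about as precisely as such genes, with a median standard error of 0.10 against 0.10.

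**Figure D2:**
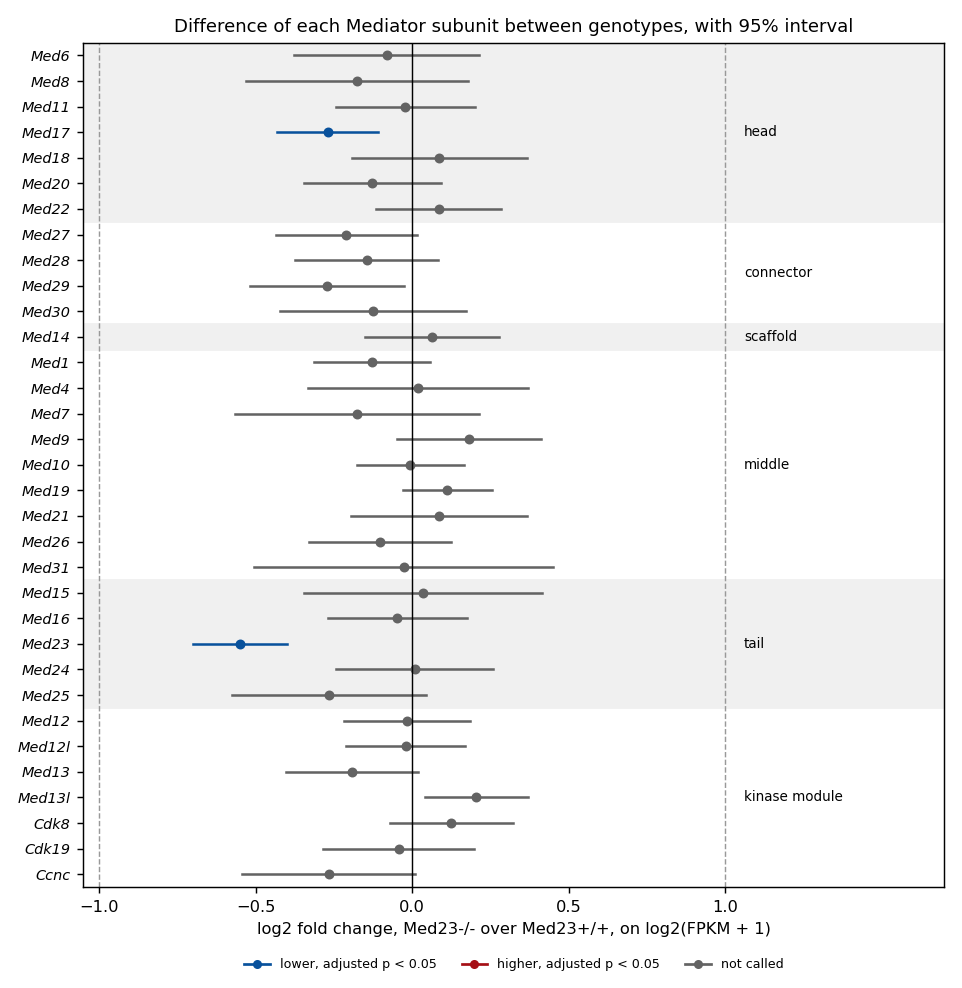
The log2 fold change of each subunit (Med23-/- over Med23+/+, on log2(FPKM + 1)), with its 95% interval from limma, by module. Med23 at -0.55 and Med17 at -0.27 (blue) are the subunits called lower, none is called higher, and no interval reaches the dashed lines of a 2-fold change.

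Transcripts of the tail were led by the deleted gene. Med23 (chromosome 10, 24869986 to 24913681, plus strand, mm10) encodes the tail subunit that receives the activators Elk1 and C/EBPβ. It measured 12.7, 12.2, 12.6 and 12.6 FPKM in Med23+/+ and 8.40, 7.93, 8.49 and 8.21 FPKM in Med23-/- iOLs. Every Med23-/- library was lower than every Med23+/+ library, and the values within a genotype were nearly level. Med23 fell by 0.55 on the log2 scale (95% interval -0.70 to -0.40, limma adjusted p = 0.000353), which left 0.658 times the Med23+/+ mean. Among the 33 subunits it went from the 24th to the 29th highest mean. One value is given for the whole gene, so the share of transcripts without the floxed part was not measured. The RNA value is not a measure of the protein, for which the paper reports a western blot of primary OPC lysates as its check of Med23 deletion.

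Med16 and Med24, which sit beside Med23 in the tail, differed little. Med16 had 13.2 ± 1.31 FPKM in Med23+/+ and 12.7 ± 1.33 in Med23-/- iOLs (log2 fold change -0.05, interval -0.27 to 0.18). For Med24 the means were 23.4 ± 3.49 and 23.4 ± 2.16 FPKM (SD, n = 4), with an interval of -0.24 to 0.26. Med15, a tail subunit bound by the SREBP factors of lipid synthesis, had 12.6 ± 2.46 and 13.0 ± 3.15 FPKM, with the wider interval of -0.34 to 0.42. Med25, which binds activators through its own domain, averaged 31.0 ± 3.63 FPKM in Med23+/+ and 25.8 ± 4.74 in Med23-/- iOLs. Its log2 fold change of -0.27 did not pass the test (limma adjusted p = 0.178), and its interval of -0.57 to 0.04 leaves room for a decrease as large as that of Med23. Without Med23-/- replicate 3, the lowest library at 19.7 FPKM, the log2 fold change was -0.15. The tail thus held 1 lower subunit of 5, the deleted gene itself, with a median log2 fold change of -0.05.

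In the head module, 1 of 7 subunits was lower. Med17 (chromosome 9, 15260351 to 15279931, minus strand) encodes the central head subunit, against which other head subunits are assembled. It measured 14.0, 14.8, 15.6 and 14.7 FPKM in Med23+/+ and 11.4, 12.01, 13.0 and 11.9 FPKM in Med23-/- iOLs. Replicate 3 was the highest library in both genotypes, and the genotypes did not overlap (two-sided exact permutation test, p = 0.0286, the smallest that 4 libraries against 4 can give). The mean of 12.1 ± 0.663 FPKM was 0.818 times the Med23+/+ mean of 14.8 ± 0.672 FPKM (SD, n = 4), a log2 fold change of -0.27 (standard error 0.07, interval -0.43 to -0.11, limma adjusted p = 0.0198). This call rested on single libraries: without Med23+/+ replicate 3, Med23+/+ replicate 4 or Med23-/- replicate 1 the limma adjusted p was 0.0573, 0.0515 and 0.0557, and it stayed under 0.05 in the other 5 such fits.

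Among the other head subunits, Med8 and Med20 had lower and Med18 and Med22 higher means in Med23-/- iOLs, and none of these passed the test. Med18 and Med20 form a movable jaw that Med8 ties to the head. Med18 had 8.61 ± 1.51 and 9.15 ± 1.09 FPKM (interval -0.19 to 0.37), while Med20 had 15.7 ± 1.24 and 14.4 ± 1.76 FPKM (interval -0.35 to 0.09). Other genes share 28.4% of the exonic bases of Med20, and the largest overlap is with an opposite-strand pseudogene. Med8 had 16.0 ± 2.13 and 14.2 ± 3.51 FPKM (interval -0.53 to 0.18). Med11 and Med22 pair with each other in the head. Their means were 10.6 ± 1.27 and 10.4 ± 0.814 FPKM for Med11 and 28.3 ± 2.47 and 30.1 ± 2.53 FPKM for Med22. Med6, at the border of head and middle, had 17.9 ± 3.06 and 16.8 ± 2.40 FPKM. All intervals of these 6 subunits included 0, and the head as a whole had a median log2 fold change of -0.08.

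Med27, Med28, Med29 and Med30, which connect head and tail in animal Mediator, all had log2 fold changes below 0, from -0.27 to -0.13, with a median of -0.18. None of the 4 passed the test. Med29 measured 10.5, 8.76, 9.09 and 7.69 FPKM in Med23+/+ and 7.77, 6.52, 6.57 and 8.24 FPKM in Med23-/- iOLs. Its groups overlapped, since Med23-/- replicates 1 and 4 exceeded the lowest Med23+/+ library, and the interval of -0.52 to -0.03 missed 0 while the limma adjusted p was 0.0903. Under quantile normalization it fell to 0.0339. Med27 had 29.1 ± 2.81 FPKM in Med23+/+ and 25.1 ± 2.87 in Med23-/- iOLs (adjusted p = 0.145). Med28 had 11.3 ± 0.782 and 10.2 ± 1.47 FPKM, and Med30 had 21.4 ± 1.62 and 19.8 ± 3.69 FPKM, with Med23-/- replicate 1 the lowest at 14.3 FPKM. The backbone Med14 had 17.1 ± 1.73 and 17.9 ± 1.72 FPKM (interval -0.15 to 0.28).

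None of the 9 middle subunits passed the test, and their median log2 fold change was -0.0059. Med1, the subunit that nuclear receptors bind, had 30.3 ± 1.51 FPKM in Med23+/+ and 27.7 ± 2.67 in Med23-/- iOLs (log2 fold change -0.13, interval -0.31 to 0.06, limma adjusted p = 0.279). Med19 lies where the kinase module and the repressor REST meet the core. It measured 16.4, 16.0, 16.5 and 15.7 FPKM in Med23+/+ and 17.9, 17.7, 16.9 and 17.6 FPKM in Med23-/- iOLs, so that every Med23-/- library was above every Med23+/+ library. The difference was small, a log2 fold change of 0.11 (interval -0.03 to 0.26, limma adjusted p = 0.215). Other genes share 12.9% of the exonic bases of Med19, and the largest overlap is with Zdhhc5 on the opposite strand. Together with Med13l, Med19 made up the 2 of 33 subunits (6.06%) without overlap in the higher direction, where 16.3% of all genes tested had none. In the lower direction Med17 and Med23 (6.06%) stood beside 15.3% of all genes.

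Med7 and Med21 form the hinge of the middle module. Med21 had 34.2 ± 3.85 and 36.5 ± 5.89 FPKM, and Med7 had 15.2 ± 2.93 and 13.4 ± 2.90 FPKM. Both intervals were wide, -0.19 to 0.37 for Med21 and -0.56 to 0.21 for Med7. Other genes share 15.5% and 21.2% of their exonic bases, and the largest overlap of each is with an opposite-strand gene. Med4, which pairs with Med9, had 18.8 ± 3.43 and 19.2 ± 3.92 FPKM. Med31, a small conserved subunit, was the least precise of the 33, with 7.24 ± 1.98 and 7.18 ± 2.42 FPKM and an interval of -0.50 to 0.45 (standard error 0.21). Other genes share 26.3% of its exonic bases, and the largest overlap is with an opposite-strand gene. Med9 differed by 0.18 on the log2 scale (limma adjusted p = 0.214) and Med26 by -0.10 (adjusted p = 0.483).

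**Figure D3:**
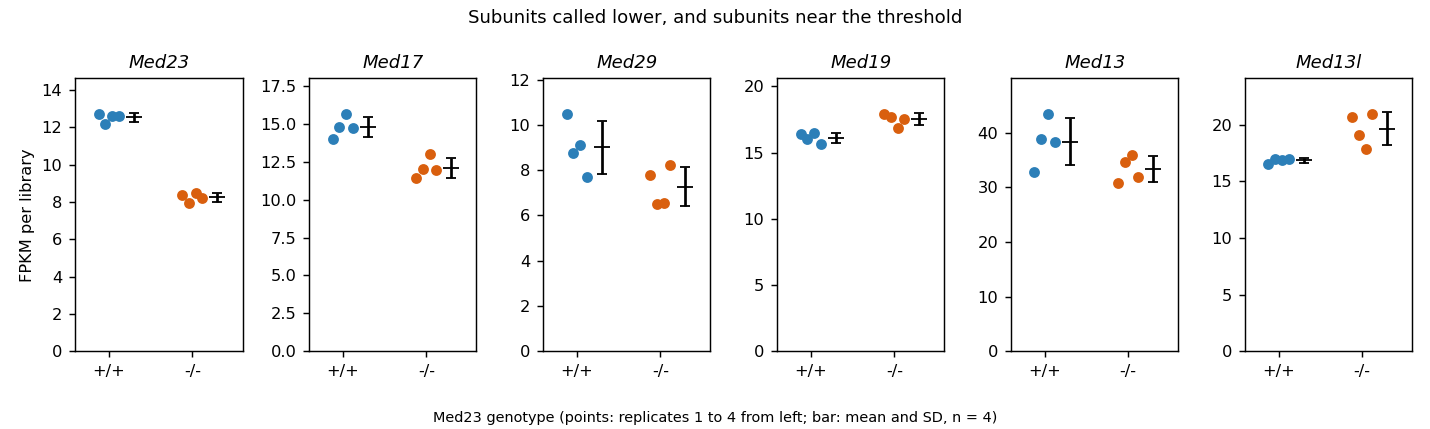
FPKM of Med23, Med17, Med29, Med19, Med13 and Med13l by library (linear axes from 0). Points are replicates 1 to 4 from left to right, and bars show the mean and SD of 4 libraries. Med23, Med17, Med19 and Med13l do not overlap between genotypes, while Med29 and Med13 do.

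In the kinase module, none of 7 transcripts passed the test (median log2 fold change -0.02), and the largest differences went in both directions. Med13 tethers the kinase module to the core, and Med13l is its paralogue. Med13l measured 16.6, 17.0, 16.9 and 17.0 FPKM in Med23+/+ and 20.7, 19.1, 17.8 and 20.9 FPKM in Med23-/- iOLs. All Med23-/- libraries were higher, with replicate 3 the nearest to Med23+/+. The means of 16.9 ± 0.206 and 19.6 ± 1.46 FPKM (SD, n = 4) gave a log2 fold change of 0.21 (interval 0.04 to 0.37, limma adjusted p = 0.0600). The difference passed in 3 of 16 alternatives, with an adjusted p of 0.0494 when genes averaging under 5 FPKM were left out of the test, 0.0391 after quantile normalization and 0.0339 without Med23-/- replicate 3. In the other 13 it did not, with an adjusted p of up to 0.144 without Med23-/- replicate 1.

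Med13 went the other way. It measured 32.9, 39.0, 43.4 and 38.2 FPKM in Med23+/+ and 30.9, 34.7, 36.0 and 31.9 FPKM in Med23-/- iOLs. Its groups overlapped through Med23+/+ replicate 1, and its log2 fold change of -0.19 had an interval of -0.40 to 0.02 (limma adjusted p = 0.156). As a share of the FPKM of both paralogues, Med13l made up 33.5%, 30.4%, 28.0% and 30.7% in Med23+/+ and 40.1%, 35.5%, 33.1% and 39.6% in Med23-/- iOLs. Only Med23-/- replicate 3 fell within the range of Med23+/+. The mean share was 30.6% ± 2.24 in Med23+/+ iOLs and 37.1% ± 3.35 without Med23 (SD, n = 4), a difference of 6.43 percentage points (two-sided exact permutation test, p = 0.0571, 0.171 after adjustment over the 3 pairs compared).

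In the other paralogue pairs the mean shares of the genotypes lay nearer to each other, which was not tested against the Med13 pair. Med12 activates the kinase, and Med12l can take its place. Med12 measured 11.4, 11.2, 13.0 and 13.0 FPKM in Med23+/+ and 11.4, 11.8, 11.2 and 13.7 FPKM in Med23-/- iOLs, and Med12l measured 8.50, 7.98, 9.81 and 8.59 FPKM and 7.89, 8.56, 9.03 and 8.81 FPKM. The genotypes overlapped for both genes, although Med12 was highest in Med23-/- replicate 4 and Med12l lowest in Med23-/- replicate 1. Med12l made up 41.8% ± 1.46 and 41.7% ± 2.29 of the pair (SD, n = 4, exact permutation p = 0.971). Their log2 fold changes were both -0.02, with intervals of -0.22 to 0.18 for Med12 and -0.21 to 0.17 for Med12l. Of the exonic bases of Med12l, 17.3% are shared with other genes, and the largest overlap is with Igsf10 on the opposite strand. For Med12 the figure is 9.72%, and the largest overlap is with Gm21986 on the same strand. Among the other paralogues the figure is 7.38% for Med13, 0.357% for Med13l, 4.58% for Cdk19 and 0% for Cdk8.

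Of the 2 kinases, Cdk19 had the higher level in all 8 libraries. Cdk8 measured 12.9, 14.9, 13.6 and 13.8 FPKM in Med23+/+ and 14.2, 13.6, 17.0 and 15.8 FPKM in Med23-/- iOLs. Cdk19 measured 22.6, 22.2, 31.2 and 23.4 FPKM and 23.2, 25.1, 23.9 and 23.4 FPKM, with Med23+/+ replicate 3 standing above all others. Cdk19 made up 64.0% ± 4.12 of the pair in Med23+/+ iOLs and 61.2% ± 2.82 in those without Med23 (SD, n = 4), a difference of -2.82 percentage points (exact permutation p = 0.343). It was -0.923 percentage points without Med23+/+ replicate 3 and -4.19 without Med23+/+ replicate 2. Cyclin C (Ccnc), the partner of both kinases, had 25.4 ± 4.05 and 20.9 ± 2.64 FPKM, a log2 fold change of -0.27 that did not pass the test (interval -0.54 to 0.01, limma adjusted p = 0.133).

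**Figure D4:**
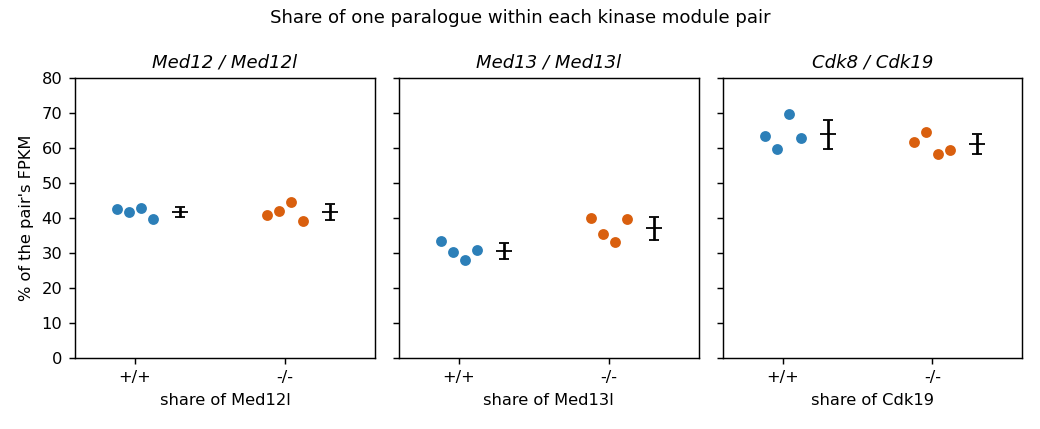
Share (%) of Med12l, Med13l and Cdk19 in the summed FPKM of each with its paralogue (Med12, Med13, Cdk8), by library. Points are replicates 1 to 4 from left to right, and bars show the mean and SD of 4 libraries. The Med13l share averages 30.6% in Med23+/+ and 37.1% in Med23-/- iOLs, with overlap through 1 library, and the other shares overlap widely.

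The promoters of Med17, Med13 and Med13l are shown for context, as RefSeq gives them on GRCm38.p6. Med17 was the subunit other than Med23 that was called. Med13 and Med13l, neither of them called, were the paralogue pair with the largest difference in mean share. The study examined Sp1, a factor that binds GC boxes, so the GC box core (the letters GGGCGG, on either strand) was searched from 250 bases before to 50 bases after the start of each gene. Each line holds 200 bases before the start, 5′ to 3′ on the strand of the gene, with matches to the core in capitals. Med17 lies at chr9:15279957-15280156 (minus strand), Med13 at chr11:86357647-86357846 (minus strand) and Med13l at chr5:118560469-118560668 (plus strand).
Med17: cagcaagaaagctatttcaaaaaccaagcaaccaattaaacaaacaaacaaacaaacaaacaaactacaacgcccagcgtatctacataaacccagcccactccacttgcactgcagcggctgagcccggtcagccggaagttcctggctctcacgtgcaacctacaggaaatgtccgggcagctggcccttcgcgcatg
Med13: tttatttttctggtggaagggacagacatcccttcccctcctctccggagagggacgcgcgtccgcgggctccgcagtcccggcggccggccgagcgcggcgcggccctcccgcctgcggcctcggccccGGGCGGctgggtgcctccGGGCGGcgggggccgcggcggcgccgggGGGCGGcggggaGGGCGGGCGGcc
Med13l: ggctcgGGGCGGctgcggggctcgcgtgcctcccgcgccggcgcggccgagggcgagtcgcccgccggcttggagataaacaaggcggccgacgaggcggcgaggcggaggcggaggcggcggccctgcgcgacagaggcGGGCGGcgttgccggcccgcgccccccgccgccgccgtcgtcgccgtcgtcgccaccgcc
The stretch of Med17 held 0 matches, that of Med13 held 5 and that of Med13l held 2, and the whole searched windows held 0, 7 and 4. Promoter entries were matched for 28 of the 33 subunits, not for Med8, Med30, Med23, Med24 and Cdk19. Of these 28, 19 (67.9%) held the core, beside 70.9% of 9295 genes tested with an entry and 38.2% of all 27025 promoters. The subunits were therefore near the share among the genes transcribed in these cells. The letters describe the sequence and do not show where a factor binds.

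Summed over the 33 subunits, Mediator transcripts came to between 585.9 and 652.8 FPKM in the Med23+/+ libraries and between 555.4 and 615.0 FPKM in the Med23-/- libraries, with overlapping ranges. Spread between replicates was alike in both. The median coefficient of variation of a subunit was 9.95% in Med23+/+ and 11.4% in Med23-/- iOLs, beside 9.38% and 10.8% for genes of the same range of levels. Within each genotype, Med8, Med27, Med4, Med9 and Med12l were higher in both replicates 3 and 4 than in both replicates 1 and 2. These were 5 of 33 subunits (15.2%), beside 7.22% of all genes tested, and the opposite order was seen in 0 subunits and 4.13% of all genes. Med4 was the clearest case, averaging 16.2 FPKM in replicates 1 and 2 and 21.5 FPKM in replicates 3 and 4 of Med23+/+, and 15.8 and 22.5 FPKM in Med23-/- iOLs. The labels name no batch behind these numbers, and with this division as a covariate the calls were still 2 lower and 0 higher.

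The factors that work with Mediator were listed separately, as 37 genes for RNA polymerase II, elongation factors, cohesin, acetyltransferases and partners of single subunits. Of the 36 tested, 3 (8.33%) were lower and 2 (5.56%) higher in Med23-/- iOLs, with a median log2 fold change of -0.0081. Of all genes tested, 14.1% were lower and 15.9% higher. Of the 19 elongation factors in the list, 4 (21.1%) were called in either direction, beside 29.97% of all genes tested. Hexim1, which holds the elongation kinase P-TEFb inactive, rose from 15.5 ± 0.537 to 21.8 ± 1.46 FPKM (log2 fold change 0.47, limma adjusted p = 0.00138). Cdk9, the kinase of P-TEFb, had 14.0 ± 0.840 and 11.8 ± 0.388 FPKM (log2 fold change -0.22, adjusted p = 0.0459), a call that held in 1 of the 8 fits that left out a library and was lost, with an adjusted p of up to 0.0566, under 4 of the other alternatives, the replicate block among them. Eaf1, a partner of the ELL elongation factors that Med26 recruits, fell from 17.5 ± 1.25 to 11.2 ± 0.824 FPKM (log2 fold change -0.61, adjusted p = 0.000651).

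Elk1, the activator that docks on Med23 itself, fell from 13.2 ± 1.17 to 9.88 ± 1.17 FPKM (log2 fold change -0.39, limma adjusted p = 0.0165). Cebpb, whose product also binds Med23, was too low to be tested, at 0.309 ± 0.192 and 0.971 ± 0.601 FPKM (SD, n = 4). Supt4a, a subunit of the elongation factor DSIF, rose from 31.8 ± 2.94 to 46.7 ± 2.57 FPKM (log2 fold change 0.54, adjusted p = 0.00124). Its value is uncertain, since GENCODE lists a processed pseudogene, Supt4b, whose reads may be counted with it. The list did not hold the whole polymerase. Its subunits Polr2a and Polr2b did not pass the test, with Polr2a at 43.4 ± 3.82 and 46.2 ± 8.43 FPKM and Polr2b at 38.8 ± 2.27 and 37.7 ± 2.15 FPKM. Ep300, Crebbp and Sp1 did not pass it either, with log2 fold changes of -0.11, -0.02 and 0.22. The interval of Sp1, 0.0011 to 0.44, narrowly missed 0 (limma adjusted p = 0.119), while those of Ep300 and Crebbp included 0.

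**Figure D5:**
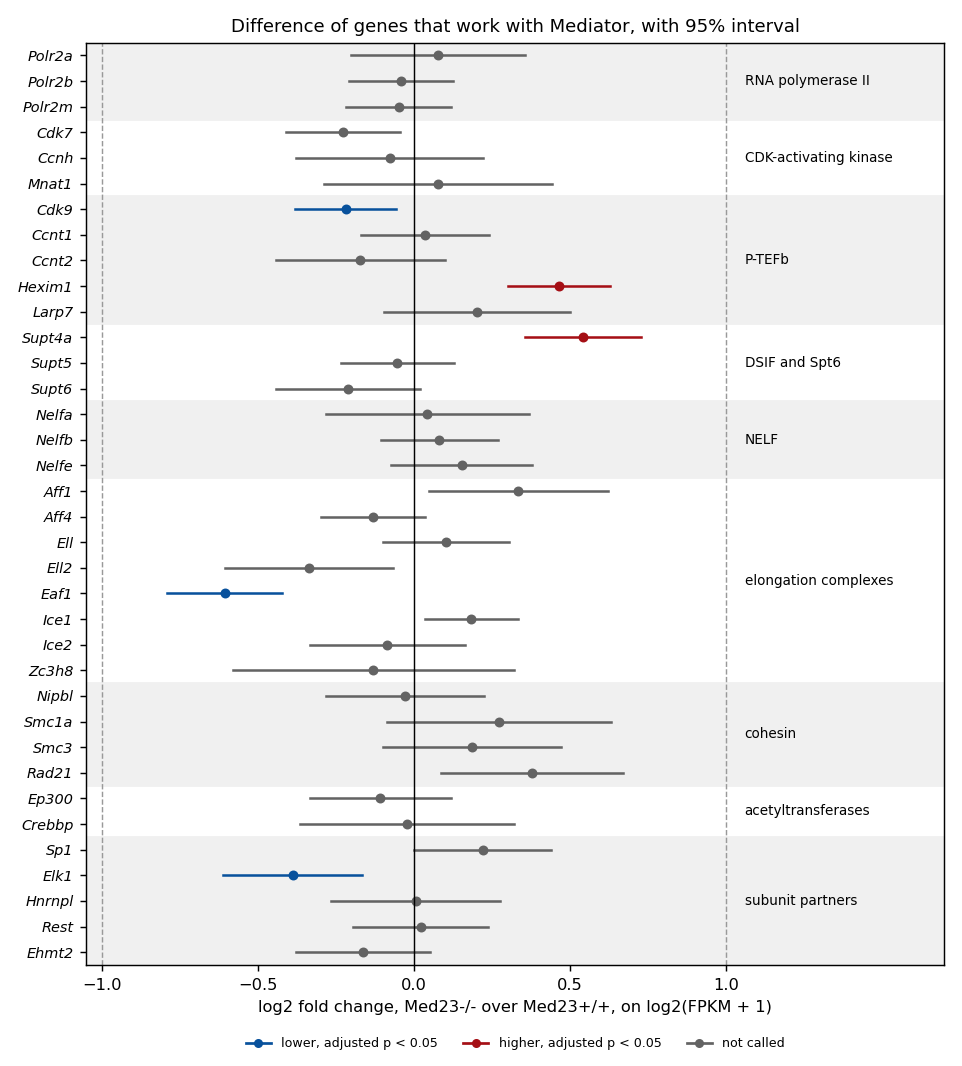
The log2 fold change (Med23-/- over Med23+/+, on log2(FPKM + 1)) of the 36 tested genes that work with Mediator, with 95% intervals from limma, by function. Eaf1, Elk1 and Cdk9 (blue) are called lower, Hexim1 and Supt4a (red) higher, and no interval reaches the dashed lines of a 2-fold change.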

How the data were processed

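Per the study's methods and the submitters' processing notes, reads of the 8 libraries were trimmed with cutadapt, aligned to mm10 with TopHat2 and quantified with Cuffdiff. Tool versions, gene annotation, strand use and the normalization between libraries are not given in the sources used here. The authors deposited FPKM per library, which were used, and also genotype means, log2 fold changes, test statistics, p-values and q-values, which were not. Of the library columns, 0 were left out.

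FPKM were transformed to log2(FPKM + 1), which understates changes of weakly expressed genes. Genes averaging at least 1 FPKM over the libraries (12328) entered limma 3.58.1 (R 4.3.3; lmFit, eBayes with trend), and Benjamini-Hochberg adjustment ran over all of them. Calls required an adjusted p under 0.05. The fit was tested on simulated data. Paralogue shares were tested by exact permutation, two-sided.

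The subunits and gene lists were chosen with earlier results of these data known. Library values are given for Med23, subunits called, paralogue pairs and the highest and lowest subunits, and for Med29 and Med19, chosen after their values were seen. Of the factors working with Mediator, those called are named, and Polr2a, Polr2b, Ep300, Crebbp, Sp1 and Cebpb were chosen after their values were seen, while 1 gene first listed with them is not reported here. Alternatives were other pseudocounts, filters, scalings, variance models, a replicate term and each library left out. Coordinates and exon overlaps come from GENCODE vM21 (mm10). Python 3.11.15, pandas 2.3.3, scipy 1.17.1 and matplotlib 3.10.9 were used.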

Additional observations from a re-analysis of the deposited data

Results flagged for a closer look

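In 3 of 82 groups of 4 libraries examined, 1 library stood far from the other three by Dixon's criterion, and chance alone flags about 1 in 20 groups. All 3 were Med23+/+ libraries. Med20 had 17.6 FPKM in replicate 3, where the others had 14.9 to 15.3 FPKM. Cdk19 had 31.2 FPKM in the same replicate, where the others had 22.2 to 23.4 FPKM. Med7 had 10.9 FPKM in replicate 4, where the others had 16.3 to 17.1 FPKM. None of the 3 subunits was called in any fit that left out a library.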

How the results depend on the processing

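Med23 kept its direction and its call under all 16 alternatives, with log2 fold changes from -0.60 to -0.53 and limma adjusted p from 0.000229 to 0.00221. Subunits called lower numbered 1 to 2 when each library was left out in turn, 3 under quantile normalization, where Med29 was added, and 0 with a fold change above 2. Subunits called higher numbered 1 with a mean of at least 5 FPKM and 1 under quantile normalization, Med13l in each, and 0 to 1 when a library was left out. Lower partner genes numbered 4 and higher partner genes 4 under quantile normalization. Same-numbered replicates of the genotypes had correlations of deviations between -0.10 and 0.16, and differently numbered ones between -0.18 and 0.16, so the numbers were not taken as pairs. Med23+/+ replicate 1 had 0.13 and 0.16 with Med23-/- replicates 1 and 2, and -0.14 and -0.13 with 3 and 4. Med23+/+ replicate 4 had -0.18, -0.14, 0.14 and 0.16 with Med23-/- replicates 1 to 4. Med23+/+ replicates 2 and 3 showed no such split. With the number as a replicate block the calls were still 2 lower and 0 higher subunits, while Med23 had an adjusted p of 0.00202, Cdk9 one of 0.0566 that ended its call, and the Med13l share a paired exact p of 0.125, the smallest that 4 pairs can give.

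Directions changed for small differences only, none of them called. Under quantile normalization the log2 fold change of Med10 was 0.10 and that of Cdk19 0.012, and under median-ratio scaling that of Med24 was -0.0044. Subunits below 0 numbered 20 and 23 under these scalings. When each library was left out, the ranges were -0.15 to 0.024 for Med6, -0.092 to 0.038 for Med11, -0.0026 to 0.18 for Med18, -0.19 to 0.015 for Med30, -0.079 to 0.12 for Med4, -0.043 to 0.027 for Med10, -0.0051 to 0.18 for Med21, -0.20 to 0.13 for Med31, -0.11 to 0.13 for Med15, -0.11 to 0.0084 for Med16, -0.060 to 0.094 for Med24, -0.075 to 0.015 for Med12, -0.058 to 0.032 for Med12l and -0.091 to 0.068 for Cdk19. The difference in the Med12l share ranged from -1.06 to 0.749 percentage points and that in the Cdk19 share from -4.19 to -0.923. The cause of these changes was not tested. Without read counts, the counting error behind each FPKM is unknown.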
